A study of Galdieria sulphuraria with 9 samples.

Results

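Gs34920 is the gene of *Galdieria sulphuraria* whose product is named as 5-methyltetrahydropteroyltriglutamate--homocysteine methyltransferase, the cobalamin-independent type of methionine synthase. It is 1 of the 6538 genes for which read counts exist, and it was the only gene with a methionine synthase name among the 1164 genes that could be paired with a product. The gene was chosen from its levels in these same libraries, across the 4 samplings and within each culture, so its levels and differences are described here without a test. Genes of related pathways, collected by product name, were tested.

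*G. sulphuraria* is a single-celled red alga that lives in hot, acidic springs, and all libraries came from the wild type of strain 074W, grown in batch culture under constant light as a photoautotroph. Separate cultures, lettered A, B and C, went through a single series of temperatures, and RNA sequencing counted transcripts at each stop. H-42 was sampled after 2 weeks at 42 °C (cultures B and C), C-28.1 after a further 48 h at 28 °C (A, B and C), H-46 after 48 h at 46 °C (A and C) and C-28.2 after a last 48 h at 28 °C (A and C). H-42 and H-46 together form the heat group of 4 libraries, and C-28.1 and C-28.2 form the cold group of 5. Which libraries are heat and which are cold was taken from the sampling labels, and the direction of every difference rests on them. A supplementary table of the study has its heat and cold columns in the opposite order for Gs34920, Gs03900 and Gs08210. Which of the sources is right could not be settled here, and an exchange of the labels would turn every direction between heat and cold given here. The timeline has no culture held at 42 °C throughout, so the temperature of a sampling and the time since the start of the cultures cannot be told apart for any single step.

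Methionine synthase catalyses the last step of methionine synthesis, in which a methyl group passes from 5-methyltetrahydrofolate to homocysteine. The cobalamin-independent enzyme, known as MetE in *Escherichia coli* and as METE in green algae and plants, does this without vitamin B12 and uses folates that carry several glutamates. Methionine then enters proteins or becomes S-adenosylmethionine, the methyl donor of most cellular methylation reactions, whose use returns homocysteine to the cycle. In the green alga *Chlamydomonas reinhardtii* the METE transcript is known to be repressed when vitamin B12 is supplied. Nothing in the data measured B12, methionine or the enzyme itself.

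Libraries held between 4389066 and 8989387 counts. Levels are given in CPM, a gene's counts scaled to a common library total, after adjustment by the trimmed mean of M values (TMM), which assumes that most genes do not differ between libraries. The median log2 difference between cold and heat over all genes was -0.01 on this scale. Libraries of bulk cultures report a gene's share of the RNA, so fewer cells with the transcript and less transcript per cell cannot be told apart. The cultures are a pure strain with no other cell type to mark. Both of the light-harvesting genes that carried a name had 0 counts in all 9 libraries, so the photoautotrophic label could not be checked with them.

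Gs34920 was low in heat and high in cold in every culture that was followed. At H-42 it stood at 660 CPM in culture B (5830 counts) and 455 CPM in culture C (3779 counts). At C-28.1 it stood at 5518 CPM in culture A (24182 counts), 5834 CPM in culture B (48635 counts) and 4756 CPM in culture C (29866 counts). All 3 libraries of this first cold sampling lay far above both of H-42.

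At H-46 the level was 720 CPM in culture A (3581 counts) and 329 CPM in culture C (1605 counts), below every cold library and on either side of both libraries of H-42. At C-28.2 it was 4573 CPM in culture A (25381 counts) and 3160 CPM in culture C (16046 counts). The second cold sampling was again above every heat library, but below every library of the first cold sampling.

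**Figure D1:**
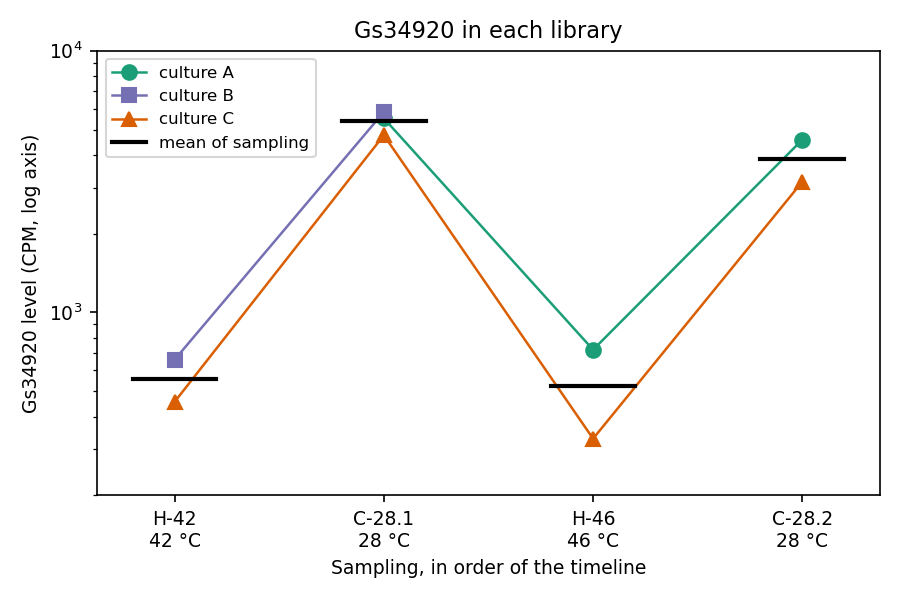
Level of Gs34920 in each of the 9 libraries (CPM on a log axis) along the 4 samplings. Points are libraries, lines join the libraries of one culture and black bars are the means of the samplings. The heat libraries lie between 329 and 720 CPM and the cold libraries between 3160 and 5834 CPM, and culture C is the lowest point at each sampling.

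The mean level was 558 ± 145 CPM at H-42 (SD, n = 2), 5369 ± 554 CPM at C-28.1 (n = 3), 525 ± 276 CPM at H-46 (n = 2) and 3866 ± 999 CPM at C-28.2 (n = 2). Put in order, H-46 and H-42 were lowest and their libraries overlapped, so these neighbours did not differ beyond their spread. C-28.2 and C-28.1 did not overlap, but the lowest library of C-28.1 (4756 CPM) was above the highest of C-28.2 (4573 CPM) by less than the SD of either sampling. Between the heat pair and the cold pair of samplings the gap was much larger than any spread. The highest heat library and the lowest cold library were 4.39-fold apart, whereas libraries differed by at most 2.19-fold within heat and 1.85-fold within cold.

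Joined over samplings, the mean was 541 ± 181 CPM in heat (SD, n = 4) and 4768 ± 1040 CPM in cold (n = 5), a ratio of 8.81. The most distant libraries, C-28.1 B and H-46 C, were 17.7-fold apart. As a share of all counts, the transcript took 0.554% of C-28.1 B (95% Wilson interval 0.549 to 0.559%) and 0.0341% of H-46 C (0.0325 to 0.0358%). Both shares rest on large counts, so the intervals are narrow, and the spread between cultures was the larger error. These intervals, and those on ratios of libraries given next, cover counting error only.

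Each culture can also be read as its own series. In culture B, measured at the first samplings only, the level was 8.84-fold higher at C-28.1 than at H-42 (95% counting interval 8.60 to 9.08). In culture A the level was 7.66-fold lower at H-46 than at C-28.1 (7.40 to 7.93) and 6.35-fold higher at C-28.2 than at H-46 (6.13 to 6.57). All of these steps went up into cold and down into heat.

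Culture C was the only one measured at all 4 samplings, and it moved the most at each step shared with another culture. Its level was 10.4-fold higher at C-28.1 than at H-42 (10.1 to 10.8), 14.4-fold lower at H-46 (13.7 to 15.2) and 9.59-fold higher again at C-28.2 (9.11 to 10.1). Culture C also had the lowest library in 4 of the 4 samplings. The level in culture A exceeded that in culture C by 1.16-fold at C-28.1, 2.19-fold at H-46 and 1.45-fold at C-28.2.

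Samplings of the same group, heat or cold, were closer within a culture than the steps were. In culture C, H-42 was 1.38-fold above H-46 and C-28.1 was 1.51-fold above C-28.2. In culture A, C-28.1 was 1.21-fold above C-28.2. The second visit to cold was thus the lower one in both cultures that were measured at each, by less than the smallest step between temperatures.

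The size of the difference was placed among all genes with edgeR, a count model that was fitted to the 6195 genes with enough counts. The log2 fold change of Gs34920 between cold and heat was 3.14 (SE 0.32), the 17th highest of those genes and the 45th by absolute size. Every cold library lay above every heat library in this gene, as in 17.1% of the genes tested, and this pattern is part of what chose it. The histogram of all genes shows how few differences were as large.

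**Figure D2:**
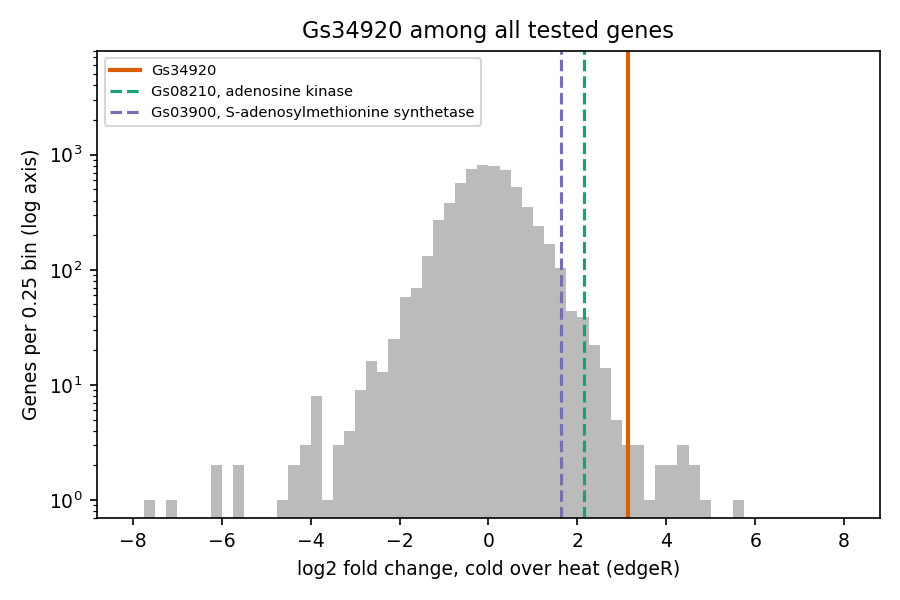
Number of genes (log axis) by log2 fold change of cold over heat in edgeR, in bins of 0.25, for the 6195 genes tested. Vertical lines mark Gs34920 at 3.14, the adenosine kinase Gs08210 at 2.15 and the S-adenosylmethionine synthetase Gs03900 at 1.64. Most genes lie near 0, and Gs34920 lies in the far right tail.

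Between consecutive samplings, Gs34920 differed by a log2 fold change of 3.27 (SE 0.39) from H-42 to C-28.1, the 21st highest of all genes. From C-28.1 to H-46 it was -3.35 (SE 0.39), the 14th lowest, and from H-46 to C-28.2 it was 2.88 (SE 0.39), the 31st highest. The log2 difference was -0.09 (SE 0.37) between H-46 and H-42 and -0.47 (SE 0.34) for C-28.2 against C-28.1, the first well within its standard error and the second above it by less than a further one. The 2 libraries of H-46 carry much of the uncertainty. Without H-46 A the step from C-28.1 was -4.05, the step to C-28.2 was 3.57 and the difference from H-42 was -0.78. Without H-46 C the same values were -2.90, 2.43 and 0.37. The direction of the large steps was the same either way, and that of the small one was not.

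The other genes around methionine were collected by product name into lists for methionine synthesis, S-adenosylmethionine use and methionine salvage, folate one-carbon metabolism and cobalamin handling, 14 genes besides Gs34920. These lists are partial, since most genes have no name here, and no named adenosylhomocysteinase, methylenetetrahydrofolate reductase or serine hydroxymethyltransferase was analysed. Calls required a change above 2.5-fold and, in edgeR's quasi-likelihood test, a p below 0.01 after Benjamini-Hochberg adjustment over all genes. Between cold and heat 2 of the 14 genes were called, both higher in cold, against 9.9% of all genes tested in either direction and 5.42% higher. Their median log2 fold change was 0.31, with 9 of the 14 above 0. The value of Gs34920, 3.14, was above all of them. Both called genes are named only in a table of genes that the study picked for their change with temperature, so they are not independent evidence of a direction. Of the 12 genes that are named in tables of alternatively spliced introns, 0 were called by edgeR and 0 by DESeq2. In edgeR 7 were at an unadjusted p under 0.05, a level that 50.1% of all genes tested also reached. Not all of the 12 are free of such picking. Gs05990 is also named among the genes picked for their change, and Gs25010 among introns reported as differentially spliced between heat and cold.

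**Figure D3:**
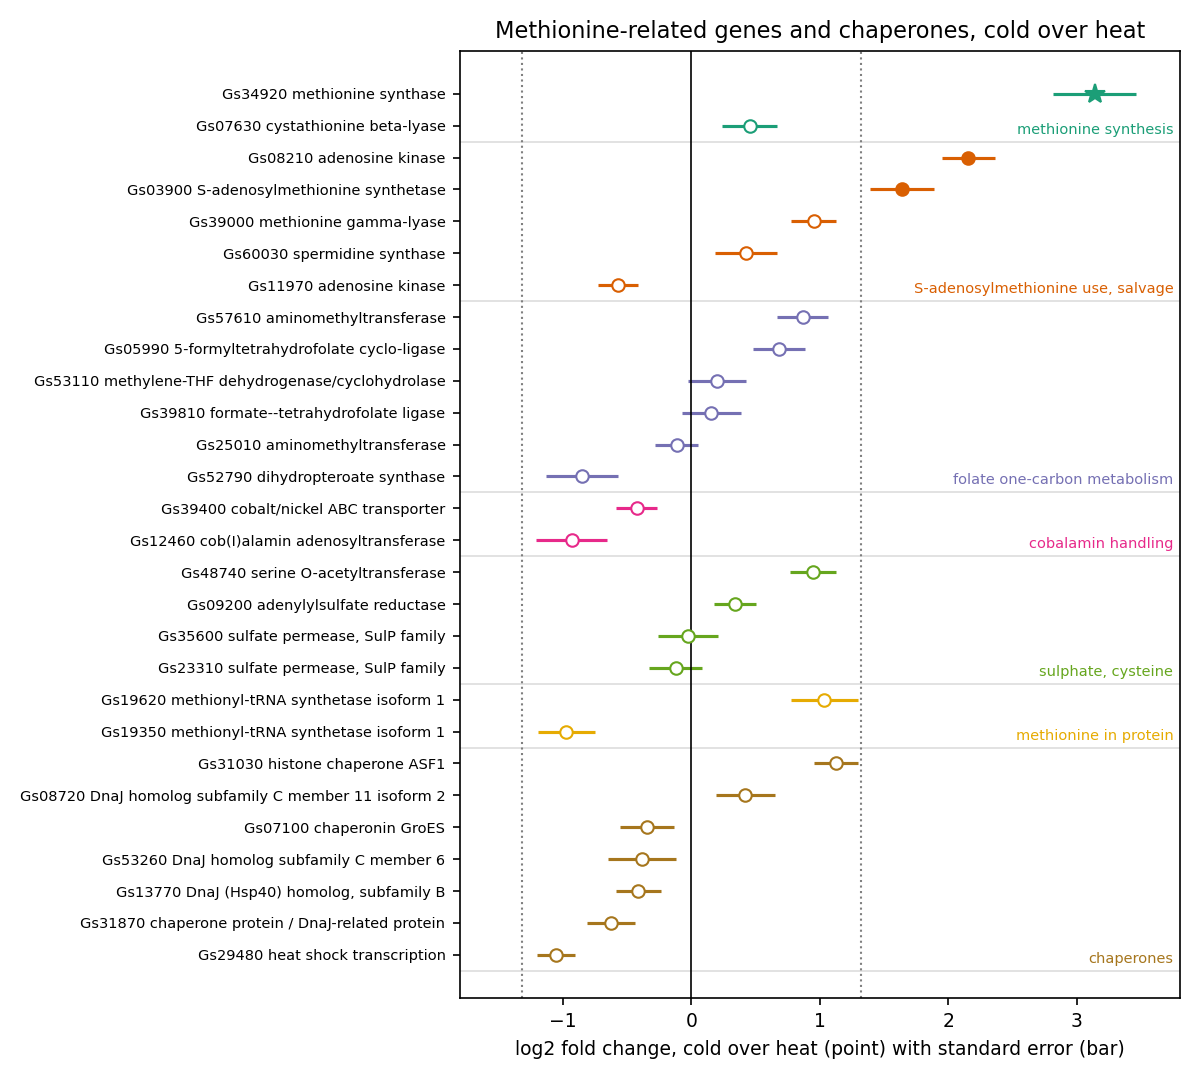
Log2 fold change of cold over heat (point) with its standard error (bar) in edgeR for Gs34920 and 27 listed genes, grouped by list. Filled points were called, open points were not, the star is Gs34920, which was not tested, and dotted lines mark a 2.5-fold change. Gs34920 lies at 3.14, and only Gs08210 at 2.15 and Gs03900 at 1.64 among the others lie beyond a dotted line.

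On the side of methionine synthesis, the one other listed gene was Gs07630, a cystathionine beta-lyase, the enzyme that releases homocysteine, which methionine synthase methylates. It stood at 68.8 ± 8.82 CPM in heat (SD, n = 4) and 94.1 ± 27.6 CPM in cold (n = 5). Its libraries overlapped between heat and cold, with a log2 fold change of 0.45 (SE 0.21, edgeR adjusted p = 0.108). It was not called, and at C-28.2 its libraries (128 and 118 CPM in A and C) were above those of all other samplings, which Gs34920's were not.

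On the side of methionine use, Gs03900 encodes an S-adenosylmethionine synthetase, which joins methionine to the adenosyl group of ATP. Its levels were 641 and 538 CPM at H-42 (B and C), 1437, 2275 and 2197 CPM at C-28.1 (cultures A to C), 531 and 553 CPM at H-46 (A and C) and 1207 and 1700 CPM at C-28.2 (A and C). All cold libraries were above all heat libraries, as in 17.1% of all genes tested. Culture A was the lowest in cold here, not culture C as in Gs34920. The gene was higher in cold by a log2 fold change of 1.64 (SE 0.25, edgeR quasi-likelihood test, adjusted p = 0.000295).

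Gs08210, the other called gene, encodes an adenosine kinase, which in this cycle removes the adenosine set free when S-adenosylhomocysteine is split. It stood at 282 and 252 CPM at H-42 (B and C), 1044, 1130 and 941 CPM at C-28.1 (cultures A to C), 204 and 259 CPM at H-46 (A and C) and 1288 and 1139 CPM at C-28.2 (A and C). Heat and cold did not overlap, with every cold library the higher, as in 17.1% of all genes tested. The second cold sampling was not the lower one, unlike in Gs34920. The log2 fold change was 2.15 (SE 0.21, edgeR adjusted p = 1.59e-05).

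A second adenosine kinase, Gs11970, had a log2 fold change of -0.57 (edgeR adjusted p = 0.0111) and was not called. Its libraries did not overlap either, in the opposite direction, at 82.5 to 92.7 CPM in heat and 47.9 to 71.9 CPM in cold. Gs39000, a methionine gamma-lyase, which breaks methionine down, averaged 50.3 ± 2.55 CPM in heat (SD, n = 4) and 97.2 ± 19.0 CPM in cold (n = 5). Its cold libraries were all above its heat libraries, as in 17.1% of all genes tested. Its log2 fold change of 0.95 (edgeR adjusted p = 0.000997) was under the 2.5-fold minimum. Gs60030, a spermidine synthase, which makes a polyamine from decarboxylated S-adenosylmethionine, showed a value of 0.42 (adjusted p = 0.179).

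The folate list holds enzymes that make, charge or interconvert the one-carbon carriers from which methionine synthase takes its methyl group. Of its 6 genes edgeR called 0 between cold and heat, against 9.9% of all genes tested, and DESeq2 called 0. With so few genes, a count of 0 does not set the list apart from that share. In edgeR 3 had an unadjusted p under 0.05, as did 50.1% of all genes. The log2 fold changes ran from -0.85 in Gs52790, a dihydropteroate synthase of folate synthesis, to 0.87 in Gs57610, an aminomethyltransferase of glycine cleavage. The adjusted p was 0.0277 for the first in edgeR and 0.00408 for the second, which missed the fold minimum.

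Cobalamin is the cofactor that the other class of methionine synthase needs and Gs34920, by its name, does not. The 2 listed genes that handle it or its metal were not called in either direction between cold and heat by edgeR or DESeq2. In edgeR 9.9% of all genes were called. Both listed genes had an unadjusted p under 0.05 in edgeR, as did 50.1% of all genes. Gs12460, a cob(I)alamin adenosyltransferase, which makes the adenosyl form of the vitamin, had a log2 fold change of -0.93 (edgeR adjusted p = 0.0167). Gs39400, the ATP-binding part of a cobalt and nickel transporter, had one of -0.43 (adjusted p = 0.0436).

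The steps between samplings gave 3 called genes of the 14 at each change of temperature. From H-42 to C-28.1 the background was 11.9% of all genes, from C-28.1 to H-46 it was 13.5% and from H-46 to C-28.2 it was 10.3%. Gs08210 was called at each, with log2 fold changes of 1.96, -2.17 and 2.39 (edgeR adjusted p = 0.000176, 7.58e-05 and 8.95e-05). These are the same directions as in Gs34920, whose own values at these steps were 3.27, -3.35 and 2.88. Gs08210 and Gs03900, the genes called at every step, are named only among genes that the study picked for their change with temperature. Their calls, their directions and their part in the counts of called genes are therefore not independent evidence.

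Gs03900 was also called at each step, with log2 fold changes of 1.74, -1.86 and 1.42 (edgeR adjusted p = 0.000828, 0.000475 and 0.00383). Its call at the first step was lost without H-42 B (adjusted p = 0.0117) or H-42 C (0.0213). Its call at the last step was lost without H-46 A (0.0106) or C-28.2 C (log2 fold change 1.15, adjusted p = 0.0231) and with library totals in place of TMM (1.29, under the fold minimum).

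The remaining call was of a different gene at each step. From H-42 to C-28.1 this was Gs12460, which stood at 88.2 and 136 CPM at H-42 (B and C) and at 40.6, 40.9 and 44.6 CPM at C-28.1 (cultures A to C), a log2 fold change of -1.41 (edgeR adjusted p = 0.00257). All libraries of the cold sampling were lower. The call was lost with culture as a block (-1.30), without H-42 C (-1.07, adjusted p = 0.0496) and without any one library of C-28.1 (adjusted p = 0.0136, 0.0138 and 0.0106 without A, B and C).

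From C-28.1 to H-46 the remaining gene was Gs52790, at 83.3, 60.0 and 66.7 CPM at C-28.1 (cultures A to C) and 214 and 148 CPM at H-46 (A and C), a log2 fold change of 1.37 (edgeR adjusted p = 6e-04). It was not high at H-42, where it stood at 78.0 and 77.2 CPM (B and C). The change fell under the fold minimum with culture as a block (1.30), without C-28.1 B (1.27) and without H-46 A (1.06).

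From H-46 to C-28.2 the remaining gene was Gs57610, at 156 and 176 CPM at H-46 (A and C) and 405 and 440 CPM in C-28.2 (A and C), a log2 fold change of 1.35 (edgeR adjusted p = 0.000661). It was under the fold minimum with library totals (1.23), without H-46 A (1.29) and without C-28.2 C (1.29). None of these 3 genes was called at another step, but for 2 of them the next step was just under the fold minimum. Gs12460 had a log2 fold change of 1.30 from C-28.1 to H-46 (edgeR adjusted p = 0.00371). Gs52790 had one of -1.29 from H-46 to C-28.2 (edgeR adjusted p = 0.00252).

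Comparing samplings of the same group, heat or cold, gave 0 of the 14 genes called in edgeR and in DESeq2. Over all genes edgeR called 0.0484% between H-46 and H-42 and 0.0161% for C-28.2 against C-28.1, where DESeq2 called 145 genes and the fit with culture as a block 138. At an unadjusted p under 0.05 in edgeR there were 3 of the 14 genes between H-46 and H-42, beside 8.54% of all genes. For C-28.2 against C-28.1 there were 5 of the 14, beside 35.8% of all genes.

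Outside the cycle itself, 3 further lists were read. The 4 genes of sulphate assimilation and cysteine synthesis provide the sulphur of methionine. Between cold and heat edgeR and DESeq2 called 0 of them, where edgeR called 9.9% of all genes. Of the 4, 1 had an unadjusted p under 0.05 in edgeR (50.1% of all genes). That gene was Gs48740, a serine O-acetyltransferase, at 35.0 ± 3.25 CPM in heat (SD, n = 4) and 67.3 ± 13.8 CPM in cold (n = 5), with a log2 fold change of 0.94 (edgeR adjusted p = 0.00123). Both methionyl-tRNA synthetases, which load methionine for protein synthesis, had an unadjusted p under 0.05 in edgeR in opposite directions. Gs19620 had a log2 fold change of 1.04 and Gs19350 one of -0.97, and neither edgeR nor DESeq2 called them.

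Chaperones, which hold or refold proteins and many of which are induced by heat, were listed as a check on the temperature labels. Of their 7 genes edgeR and DESeq2 called 0 between cold and heat, where edgeR called 9.9% of all genes. In edgeR 4 had an unadjusted p under 0.05 (50.1% of all genes), and the median log2 fold change was -0.39. Their summed level ran from 2520 to 3201 CPM in heat and from 1969 to 2387 CPM in cold. Most of that sum is a single gene, the chaperonin GroES gene Gs07100, at 1917 to 2573 CPM in heat and 1470 to 1923 CPM in cold, which overlapped and was not called (edgeR adjusted p = 0.204). With 2 of the 7 genes above 0 and 5 below, the list does not settle the labels. It was collected by name and is mixed as a check of heat response, since it also holds a histone chaperone and a heat shock transcription entry. The genes above 0 were that histone chaperone gene, Gs31030, at 1.12 and Gs08720, a DnaJ homolog, at 0.42 (edgeR adjusted p = 0.162). Gs29480, whose product is given as heat shock transcription, had a log2 fold change of -1.05 (edgeR adjusted p = 0.000209), under the fold minimum. The one call in this list was Gs31030, a histone chaperone of the ASF1 type, which was higher at C-28.1 than at H-42 by a log2 fold change of 1.44 (edgeR adjusted p = 0.000204).

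The genes numbered next to Gs34920, which the RefSeq annotation of assembly ASM34128v1 also places beside it, were not called in either direction. Between cold and heat 9.9% of all genes tested were called, so a lack of calls in so few genes does not set them apart. Gs34910, an M50 family peptidase, had a log2 fold change between cold and heat of 0.07 (edgeR adjusted p = 0.801), and Gs34930, an acyl-activating enzyme, one of -0.11 (0.59). Gs34900 and Gs34940, one gene further out on each side, had -0.35 (0.366) and -0.53 (0.303). From H-42 to C-28.1 the values were -0.89 in Gs34900 (edgeR adjusted p = 0.0248) and 0.22 in Gs34910 (0.45). They were -0.04 in Gs34930 (0.864) and -1.24 in Gs34940 (0.0436).

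Genes with a like pattern were sought over the 9 libraries among 6194 other genes, by the Pearson correlation of log2 CPM and by the root mean square difference after each gene's mean was removed. The 9 points share the split into heat and cold, and 597 genes had a correlation above 0.9, so a high value is common here. The highest was that of Gs55250 at 0.997, followed by Gs52930 (0.997), Gs27160 (0.995), Gs30300 (0.994) and Gs17400, an O-methyltransferase (0.992). Correlation ignores size, and all of these moved less than Gs34920, with log2 fold changes between cold and heat from 1.02 in Gs17400 to 2.20 in Gs55250.

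In size as well as shape, the closest gene was Gs07660, which has no product name here, with a root mean square difference of 0.249 on the log2 scale. It stood at 55.4 and 48.2 CPM at H-42 (B and C), 498, 429 and 409 CPM at C-28.1 (cultures A to C), 62.8 and 38.0 CPM at H-46 (A and C) and 373 and 196 CPM at C-28.2 (A and C). As in Gs34920, culture C was the lowest library at each sampling and the second cold sampling was below the first. Gs07660 was picked for its closeness in these same libraries, so these likenesses are not separate evidence. Next came Gs07910 (0.293), Gs30520 (0.360), Gs18220 (0.396) and Gs19840, which encodes the elongation factor EF-1 alpha, a carrier of aminoacyl-tRNA in translation (0.397).

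**Figure D4:**
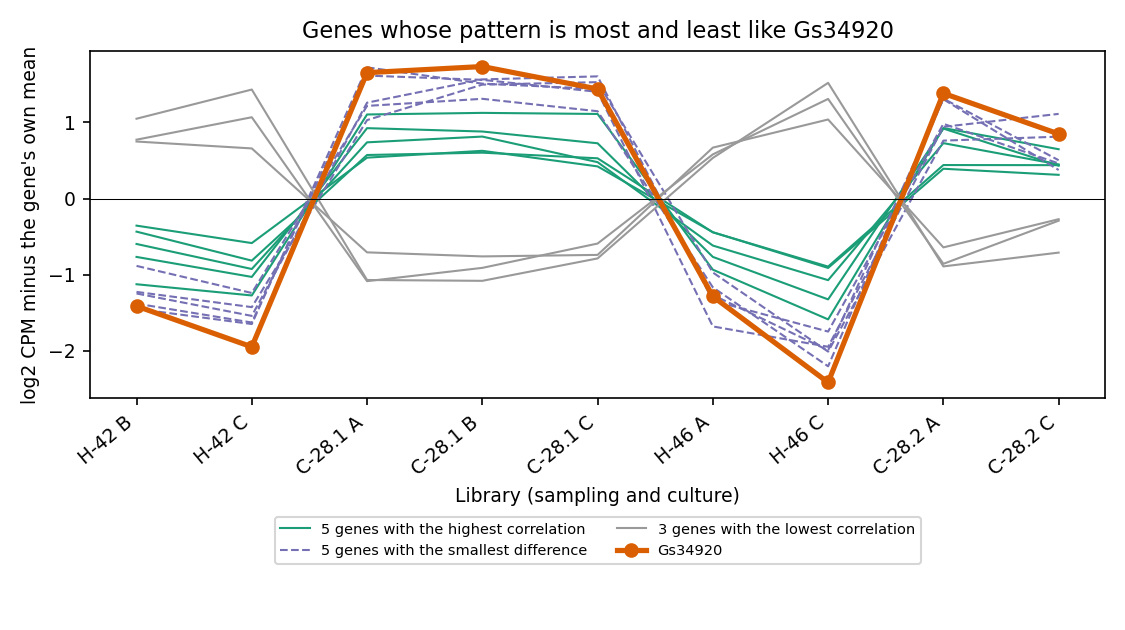
Level of Gs34920 and of 13 other genes in each library, as log2 CPM minus the gene's own mean over the 9 libraries. Green lines are the 5 genes with the highest Pearson correlation, dashed lines the 5 with the smallest root mean square difference and grey lines the 3 with the lowest correlation. Dashed lines follow Gs34920 most closely in size, green lines have its shape with smaller differences, and grey lines run opposite.

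At the other end, 412 genes had a correlation under -0.9 with Gs34920. The lowest were Gs38430 (-0.991), Gs09890 (-0.991) and Gs42300, a methylase protein (-0.990), all high in heat and low in cold. Among the listed genes, Gs08210 reached 0.951, Gs39000 0.944, the histone chaperone gene Gs31030 0.942, Gs03900 0.933 and the methionyl-tRNA synthetase gene Gs19620 0.904. Gs29480 reached -0.988. High values were thus not limited to the genes around methionine.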

How the data were processed

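For each of 9 libraries the authors deposited counts of reads on 6538 genes, as whole numbers that were not normalized. The study's methods describe trimming with Trimmomatic, mapping to the genome with STAR and removal of reads with more than one location for the splicing analysis. Whether those alignments gave the counts, and which annotation, strand setting and lanes were used, is not given in the sources used here, so reads of overlapping or near-identical genes are uncertain.

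Groups came from the sampling labels and cultures from the source names. Cultures were grown separately, but the fit takes the 9 libraries of 3 cultures as independent, so the spread behind its p-values mixes repeat samplings of one culture with differences between cultures. Libraries held 4389066 to 8989387 counts, and no 2 libraries were identical. Counts were scaled by TMM, filtered by filterByExpr and fitted by quasi-likelihood in edgeR 4.0.16 (R 4.3.3, limma 3.58.1). Cold against heat was fitted with 2 groups and the steps with 4 samplings in one model. Calls needed a Benjamini-Hochberg adjusted p below 0.01 over all 6195 genes and a change above 2.5-fold. The study states that fold for genes and that false discovery rate for splicing. The fit was tested on simulated data with 200 genes changed 4-fold. It recovered 98% of them for cold minus heat and 80.5% for C-28.1 minus H-42. The simulated libraries were drawn as independent, so this did not cover repeat samplings of one culture. Correlations used log2 CPM with a pseudocount of 0.5 counts. Wilson and counting intervals are at 95%.

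The culture letters pair libraries, since the same cultures moved through the samplings. Deviations of libraries of one culture from their sampling means correlated at 0.0309 to 0.545. Between libraries of different cultures the values ran from -0.545 to 0.327. In a sampling with only a pair of libraries the deviations mirror each other, so many of these values repeat with the same or opposite sign. They therefore do not test the pairing.

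Gs34920, the lists and the tests were chosen with earlier results of these data known. Named genes were all called genes of the 4 methionine lists, uncalled ones that supply or use methionine, the 2 largest calls in each direction of the other lists, neighbours, and the 5 genes most like Gs34920 by each measure with the 3 least like. Other genes of the 4 lists (Gs11970, Gs39000, Gs60030, Gs39400) and those of the other lists that were not called (Gs48740, Gs19620, Gs19350, Gs29480) were named after their values were seen. Product names came from supplementary tables of the study, on introns and on genes picked for their change. Their coverages and fold changes were not used, except to compare the order of heat and cold with the sampling labels. Neighbours came from RefSeq (ASM34128v1), which matched 6510 genes. No sequence was used here. Alternatives were RLE factors, library totals, DESeq2 1.42.0, other filters and thresholds, culture as a block, and leaving out each library.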

Additional observations from a re-analysis of the deposited data

Results flagged for a closer look

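In 4 of 64 groups of libraries checked, 1 library stood apart from the others by more than Dixon's 95% critical value, which chance alone gives in about 1 group in 20, and none of these groups was of Gs34920. In heat, the neighbour Gs34930 stood at 99.9 CPM in H-42 C and at 88.7 to 90.1 CPM in the other libraries (gap over range 0.874). In cold, C-28.2 C was the library apart in the other 3. It held the neighbour Gs34940 at 116 CPM against 36.0 to 47.0 (0.862), the elongation factor gene Gs19840 at 3307 CPM against 5165 to 5793 (0.748) and the methylase gene Gs42300 at 37.0 CPM against 26.4 to 28.6 (0.788). This library was also the lowest cold library for Gs34920, at 3160 CPM. Gs19840 and Gs42300 were checked because their patterns follow or mirror that of Gs34920, so they are not separate evidence on this library. The heat and cold groups each join different samplings, for which the stated chance rate need not hold.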

How the results depend on the processing

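The log2 fold change of Gs34920 between cold and heat kept its direction in 16 alternatives, from 2.96 to 3.32, and was 3.04 with library totals, a scaling that moved the median of all genes to -0.10. Leaving out one library at a time gave 3.03 to 3.57 for C-28.1 minus H-42, -4.05 to -2.90 for H-46 minus C-28.1, 2.43 to 3.57 for C-28.2 minus H-46, -0.78 to 0.37 for H-46 minus H-42 and -0.76 to -0.23 for C-28.2 minus C-28.1. With culture as a replicate block, the pairing moved the cold minus heat value to 3.13. The blocked fit kept both called genes between cold and heat, and gave 2 called genes in place of 3 in each of the first 2 steps, without Gs12460 and Gs52790. It changed no other call of a listed gene.

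Of the 14 listed genes, 2 were called between cold and heat with the fold minimum and 4 without it. With names from the intron tables only, an alternative chosen after the data were seen, 0 were called. For the steps the counts without the fold minimum were 7 (H-46 minus C-28.1) and 5 (C-28.2 minus H-46) and with intron names 1 at each step, in place of 3. Leaving out one library gave 2 between cold and heat, 1 to 3 from H-42 to C-28.1 (1 without H-42 C), 2 to 3 from C-28.1 to H-46 and 1 to 4 from H-46 to C-28.2 (1 without H-46 A). The cause was not tested. Of 359 values of single listed genes under alternatives, 16 lost a call and 0 reversed. These values include genes that were not called in the main fit and so had no call to lose. A change of sign was counted as a reversal only where a gene was called, so the counts overstate stability. Of the 5 genes with the highest correlation, 0 were among the top 5 by Spearman's or by the root mean square difference, and 2 to 5 when a library was left out.

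Over all genes, calls of C-28.2 against C-28.1 went from 1 to 145 with DESeq2, 138 with the block, 44 with library totals and 32 without a filter, those between H-46 and H-42 from 3 to 23 with DESeq2, and those of C-28.1 minus H-42 from 735 to 334 without H-42 B and 199 without H-42 C.

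Depth does not limit Gs34920, with at least 1605 counts in each library, but 2 libraries in most samplings limit the spread that can be estimated. A loss of one library there leaves 1, assumed to vary like the others.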
